A study of Mus musculus with 8 samples.

Results

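Heat shock chaperones are described here as a set of 10 mouse genes measured in sorted CD4 T cells with and without the complement receptor C5aR1. The genes were taken by symbol: the inducible HSP70 genes Hspa1a and Hspa1b, and 8 other chaperones, Hspa8, Hspa5, Hsph1, Dnajb1, Hsp90aa1, Hsp90ab1, Hspd1 and Hspe1. All 10 were found among the 14042 genes of each deposited table. The set was drawn up after Hspa1a and Hspa1b had been seen to differ between genotypes, so the genes were chosen by their KO and WT levels, and every genotype difference of them is given as a description without a test. Comparisons of TFH-labelled with naive-labelled libraries were tested, although earlier results from them were also known.

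The series holds 8 RNA sequencing libraries, 2 in each of 4 groups. TFH KO libraries come from donor CD4 cells of genotype C5aR1-/-, sorted as CXCR5+PD1hi from spleens of (bxd)F1 recipients on day 7 after transfer of CD8-depleted donor spleen cells. TFH WT libraries come from donor cells of WT genotype handled in the same way. Naive KO and naive WT libraries come from CD62Lhi CD44lo CD4 T cells of genotype C5aR1-/- and WT, sorted as controls alongside. CXCR5 and high PD1 are the surface marks of T follicular helper (TFH) cells, which help B cells make antibody. C5aR1 binds the complement fragment C5a, and the labels give C5aR1-/- for the donor as a whole, so the loss is not limited to T cells. F1 recipients keep their own lymphocytes, and the separation of donor from host cells rests on the sort. Mouse age, sex, strain of the donors and the number of animals per library are not given in the labels.

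Chaperones of the HSP70 class bind exposed hydrophobic stretches of unfolded proteins in cycles driven by ATP. J-domain proteins such as Dnajb1 deliver substrates and stimulate ATP hydrolysis, exchange factors such as Hsph1 release the nucleotide, and HSP90 completes the folding of kinases and hormone receptors. Heat shock factor 1 (HSF1) induces these genes through heat shock elements, arrays of inverted GAA units, and Hspa1a and Hspa1b are its classical targets, low in resting cells and strongly induced by proteotoxic stress. Hspa8 is the constitutive cytosolic member, Hspa5 (BiP) is the HSP70 of the endoplasmic reticulum (ER), and Hspd1 with Hspe1 forms the HSP60 and HSP10 folding chamber of mitochondria.

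Upstream sequence is shown first for the genes whose levels differ most in the results, because Hspa1a and Hspa1b are near-identical copies and Hspa5 carries a different stress element. Promoter windows, 250 bases before and 50 after the start site, were matched by symbol for 7 of the 10 genes in RefSeq on GRCm38.p6. The 3 others are Hspa8, Hsp90aa1 and Hsp90ab1. Printed are the 250 bases before the start for Hspa1a on the minus strand (chr17:34972157-34972406) and Hspa1b on the minus strand (chr17:34959239-34959488), and the element with 5 bases on each side for Hspa5 on the plus strand (chr2:34772020-34772048). Capitals mark a 2-unit heat shock element in Hspa1a and Hspa1b and an ER stress element in Hspa5.
Hspa1a: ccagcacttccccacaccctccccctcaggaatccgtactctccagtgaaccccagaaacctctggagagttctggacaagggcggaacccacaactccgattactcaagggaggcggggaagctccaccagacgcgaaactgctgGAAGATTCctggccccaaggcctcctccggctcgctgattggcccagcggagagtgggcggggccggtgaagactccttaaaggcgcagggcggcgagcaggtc
Hspa1b: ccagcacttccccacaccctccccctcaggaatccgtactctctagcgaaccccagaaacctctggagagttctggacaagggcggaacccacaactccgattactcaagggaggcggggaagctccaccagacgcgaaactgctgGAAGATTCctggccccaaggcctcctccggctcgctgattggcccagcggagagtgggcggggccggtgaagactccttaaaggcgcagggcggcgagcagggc
Hspa5: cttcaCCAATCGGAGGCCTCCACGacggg

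Counted from 1 at the 5′ end of the 300-base window, Hspa1b differed from Hspa1a at 4 positions: C44T, T47C, T249G and C276T, the last of them beyond the stretch printed. The windows were thus 98.7% identical, and the element GAAGATTC began 104 bases before the start in both. The 2-unit motif, GAANNTTC or TTCNNGAA on either strand, occurred in the windows of 5 of the 7 genes and in 15.1% of 32851 RefSeq promoter windows. A 3-unit motif, GAA and TTC in turn with 2 bases between units, on either strand, contains the 2-unit motif and occurred in Hsph1, Hspd1 and Hspe1 and in 0.603% of all windows. The 7 genes had 10 windows, and a gene was counted where any of its windows held the motif. For Hspd1 only 1 of 2 windows held it, and the other (chr1:55088194-55088493) held neither heat shock motif. The 3-unit motif is shown with its flanks for Hspd1 on the minus strand (chr1:55088053-55088082) and Hsph1 on the minus strand (chr5:149636280-149636308), with all exact heat shock units in capitals. In the Hspd1 window that held it, the motif began 144 bases before the start. For Hsph1 it began after the start, by 15 bases in one window and 36 in the other. Hspa1a and Hspa1b held only the exact 2-unit match, and arrays with inexact units were not searched for.
Hspd1: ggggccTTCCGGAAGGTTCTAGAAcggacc
Hsph1: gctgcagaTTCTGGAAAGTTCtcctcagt

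The element printed for Hspd1 is also that of Hspe1, which starts next to it on the opposite strand, so that window of Hspd1 and the window of Hspe1 hold the same stretch. Hspa5 held the ER stress element, CCAAT and CCACG with 9 bases between them, 65 bases before its start, a motif found in 0.119% of all windows on either strand and in no other of the 7 genes. The CCAAT box (CCAAT or ATTGG), part of that element, was found in 6 of the 7 genes and in 37.4% of windows. For Hspd1 it was only in the window without a heat shock motif. For Dnajb1 neither heat shock motif was in these windows. Starts are those of RefSeq, and GENCODE vM21 has longer transcripts of Hspa5 and Hspd1 that begin earlier. On the minus strand, the RefSeq genes Hsph1 (to 149636498) and Hspd1 (to 55088243) also begin earlier than the windows' starts nearest their 3-unit motifs. The stretches printed for these genes thus lie inside them. A match describes the letters only, is neither a site nor a cause, and a window without one says nothing about binding elsewhere.

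Values below are deposited log2 expression levels, with the same distribution in all 8 libraries, as quantile normalization leaves them, and differences are log2 differences of group means ± moderated standard error (SE) with n = 2 libraries per group. A gene was called at a Benjamini-Hochberg adjusted p below 0.05 over all 14042 genes in limma. Sequencing depth is unknown, and levels of different genes are not compared because no length scaling is stated. The 6 T cell marker genes summed to log2 17.48 to 17.65 in every library. The 5 TFH marker genes summed to log2 13.93 to 14.59 in TFH-labelled and 13.42 to 14.19 in naive-labelled libraries, which overlap. Cxcr5, a gene of the sort gate, was at 10.85 to 11.56 in TFH-labelled and 11.56 to 12.45 in naive-labelled libraries, not higher with the TFH label. Il21, at 9.58 to 10.4 against 7.31 to 8.19, and Bcl6, at 11.33 to 11.92 against 10.78 to 11.18, were higher with it. Pdcd1 and Icos had higher group means with the TFH label, but their libraries overlapped between labels. Because the marker genes did not all go one way, the groups are called by their labels. The 10 B cell genes summed to 11.29 and 15.19 in TFH KO, 11.74 and 13.72 in TFH WT and 12.23 to 13.68 in the naive-labelled libraries, with no single marker below 6.09. The 8 myeloid genes summed to 15.18 in naive WT replicate 1 and 13.64 to 13.90 in the other naive-labelled libraries, above the 12.14 to 13.06 of the TFH-labelled ones. The 7 CD8 and NK genes summed to 11.12 to 12.31 in TFH-labelled and 12.74 to 13.13 in naive-labelled libraries. Both lists thus separated the labels without overlap. H2-Ea-ps, an MHC gene, stood at 8.21 and 12.44 in TFH KO and at 8.22 and 11.03 in TFH WT. In the naive-labelled libraries it was at 1.16 to 1.79. Whether it marks RNA of host cells was not tested. Across all genes, TFH KO replicate 1 had r = 0.9924 with TFH WT replicate 1 and 0.9829 with its own replicate 2, which had r = 0.993 with TFH WT replicate 2. Xist, an RNA made in female cells, stood at 14.61 in naive KO replicate 1 and at 4.44 to 5.56 in the remaining 7 libraries. Ddx3y, a gene of the Y chromosome, stood at 5.67 in naive KO replicate 1 and at 12.54 to 13.16 in the remaining 7. By these genes the naive KO replicates differ in sex, and its part in the comparisons with naive KO was not tested. The deleted gene, C5ar1, was not analysed here and gives no check of genotype. In such bulk samples, fewer cells of a type and less RNA per cell cannot be told apart.

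Hspa1a, an inducible HSP70 of the cytosol (chr17:34969359-34972156), was lower in KO than in WT libraries. Its log2 level was 4.64 and 5.71 in TFH KO, against 8.58 and 9.17 in TFH WT. In naive-labelled libraries it was 2.64 and 2.93 in KO, against 8.0 and 11.97 in WT. No KO library reached any WT library, and the WT libraries with the naive label were themselves far apart. Hspa1b, the neighbouring copy (chr17:34956429-34959238), was at 5.85 and 6.30 in TFH KO and 9.72 and 10.17 in TFH WT. With the naive label it was at 5.88 and 4.85 in KO and 9.99 and 13.81 in WT. As for Hspa1a, the 4 KO libraries lay below the 4 WT libraries and naive WT replicate 2 was the highest of all.

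**Figure D1:**
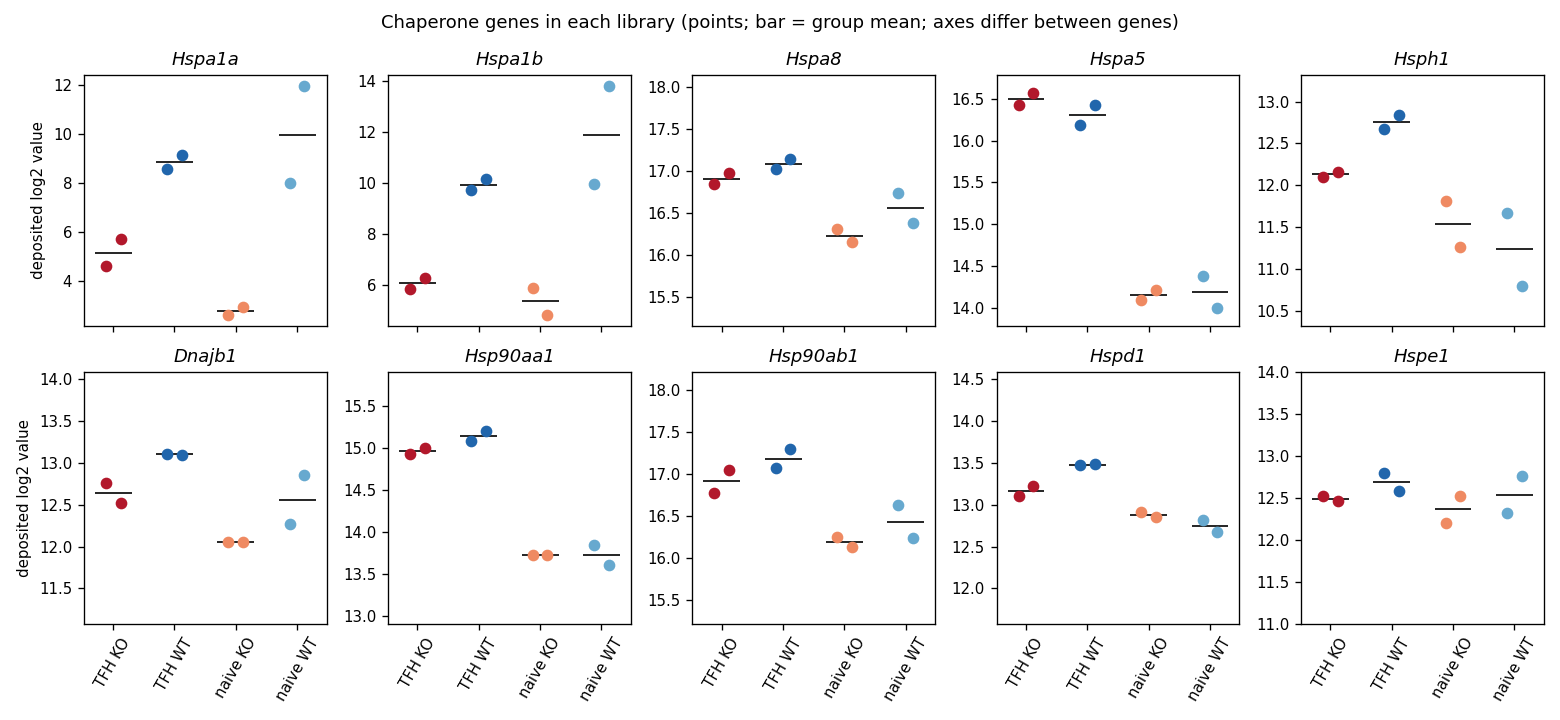
Deposited log2 level (y axis, a separate range for each gene) of the 10 chaperone genes in each library, grouped along the x axis as TFH KO, TFH WT, naive KO and naive WT. Points are libraries and bars are group means of 2. Hspa1a and Hspa1b separate KO from WT under both labels, while Hspa5 and Hsp90aa1 separate TFH-labelled from naive-labelled libraries.

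The difference KO minus WT for Hspa1a was -3.70 ± 1.42 in TFH-labelled libraries, a 13-fold lower mean in KO, and -7.20 ± 1.42 in naive-labelled libraries, 147-fold lower. For Hspa1b it was -3.87 ± 1.38, 14.6-fold lower, and -6.53 ± 1.38, 92.5-fold lower. The group means of Hspa1a were 5.18 ± 0.75 in TFH KO and 8.87 ± 0.42 in TFH WT (SD, n = 2 each). With the naive label they were 2.78 ± 0.21 in KO and 9.99 ± 2.81 in WT. The naive folds turn on naive WT replicate 2: without it the differences were -5.21 for Hspa1a and -4.62 for Hspa1b, and without replicate 1 they were -9.19 and -8.44. The TFH-labelled differences ranged from -4.23 to -3.16 for Hspa1a and from -4.10 to -3.65 for Hspa1b over all alternatives run. The genotype difference was smaller in TFH-labelled than in naive-labelled libraries by 3.50 ± 2.01 for Hspa1a and 2.66 ± 1.95 for Hspa1b, which is not tested here.

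Position in the ranking of all genes restates the same separation without a fold, since the libraries share nearly the same distribution of values. In TFH KO 0.164% and 0.677% of genes had a lower value than Hspa1a, against 30.0% and 36.9% in TFH WT. In naive KO only 3 and 4 genes of 14042 were lower than Hspa1a, and in naive WT 23.2% and 80.0% of genes were. Hspa1b had 0.869% and 2.24% of genes below it in TFH KO, against 44.1% and 50.3% in TFH WT. In naive KO it had 0.904% and 0.207% below it, against 47.8% and 96.0% in naive WT. The number of reads behind values at the bottom of the tables is unknown, so neither the fold nor the exact rank of Hspa1a in naive KO is firm.

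Replicates within a group also differed for this pair. Naive WT replicate 2 exceeded replicate 1 by 3.97 for Hspa1a, the largest such rise of any gene in the tables, and by 3.82 for Hspa1b, which only Hspa1a exceeded. Among the other 8 chaperones 6 were lower in naive WT replicate 2, by up to 0.88 for Hsph1, while Hspe1 was 0.44 and Dnajb1 0.57 higher. In TFH KO replicate 2 exceeded replicate 1 by 1.07 for Hspa1a and 0.45 for Hspa1b, and in TFH WT by 0.59 and 0.44. In naive KO the copies moved apart, with replicate 2 minus replicate 1 at 0.29 for Hspa1a and -1.02 for Hspa1b. The replicates 2 of both TFH groups were also those with higher B cell genes, and naive WT replicate 1 that with higher myeloid genes. The part of these cells in the HSP70 values was not tested.

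Reads cannot always be assigned between the copies. Of all 51-base stretches of the Hspa1a transcript, the read length used, 58.6% also occur in Hspa1b, and 62.0% of those of Hspa1b occur in Hspa1a, in the GENCODE vM21 transcripts. In the coding part the shares are 82.0% and 81.9%, and in the 3′ UTR 0.0% for both. Added on the linear scale, the copies gave log2 6.37 and 7.03 in TFH KO, against 10.26 and 10.75 in TFH WT. The sums were 6.02 and 5.19 in naive KO, against 10.31 and 14.16 in naive WT, and again no KO sum reached a WT sum.

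TFH-labelled and naive-labelled libraries were compared next, separately in KO and in WT. Hspa1a was 2.39 ± 1.42 higher in TFH KO than in naive KO (adjusted p = 0.339) and differed by -1.11 ± 1.42 in TFH WT against naive WT (adjusted p = 0.634). Hspa1b differed by 0.71 ± 1.38 in KO (adjusted p = 0.783) and by -1.95 ± 1.38 in WT (adjusted p = 0.387). Neither gene was called in either genotype. The calls depend on the naive WT libraries, which enter through the shared estimate of spread: without naive WT replicate 1 or 2, Hspa1a was called in KO (adjusted p = 0.00288 and 0.00341). With the compared groups alone it was called as well (adjusted p = 0.0374). In WT, leaving out naive WT replicate 1 gave called falls of -3.10 for Hspa1a (adjusted p = 0.00263) and -3.86 for Hspa1b (adjusted p = 0.00171), while leaving out replicate 2 gave 0.87 and -0.04.

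**Figure D2:**
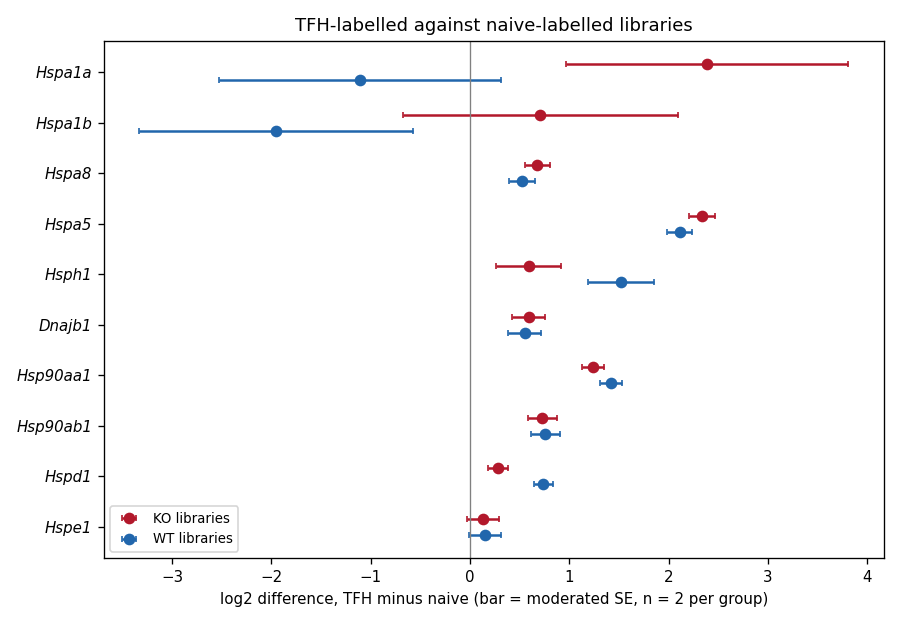
Log2 difference TFH minus naive (x axis) of the 10 chaperone genes (y axis) in KO and WT libraries, as points with moderated SE, n = 2 libraries per group. Hspa5 lies at 2.34 in KO and 2.11 in WT with small errors, whereas Hspa1a and Hspa1b have wide errors on either side of 0.

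Hspa8, the constitutive cytosolic HSP70 (chr9:40801276-40805202), was at 16.84 and 16.98 in TFH KO, 17.02 and 17.15 in TFH WT, 16.31 and 16.15 in naive KO and 16.74 and 16.38 in naive WT. The TFH-labelled libraries were all above the naive-labelled ones. It rose by 0.68 ± 0.13 in TFH KO against naive KO (adjusted p = 0.00317) and by 0.52 ± 0.13 in TFH WT against naive WT (adjusted p = 0.00999). The WT call was lost without TFH WT replicate 2 (adjusted p = 0.0799) or naive WT replicate 2 (adjusted p = 0.0942), and both calls when replicate 2 was removed from each TFH group (adjusted p = 0.0521 in KO and 0.0975 in WT). By genotype it differed by -0.18 ± 0.13 with the TFH label and -0.33 ± 0.13 with the naive label, with no overlap between KO and WT libraries in either. Of its 51-base stretches 74.6% occur in transcripts of other genes, and Gm15459 shares the most of them. This share was 58.3% for Hsp90aa1, 44.3% for Hspd1 and 44.1% for Hspe1. It was 4.3% for Hsp90ab1, 0.4% for Dnajb1 and 0.0% for Hsph1.

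Hsph1, the HSP110 exchange factor (chr5:149616843-149636498), was at 12.10 and 12.16 in TFH KO, 12.67 and 12.84 in TFH WT, 11.81 and 11.26 in naive KO and 11.67 and 10.80 in naive WT. TFH WT libraries were the highest and the naive-labelled ones overlapped by genotype. The difference TFH minus naive was 0.59 ± 0.33 in KO (adjusted p = 0.283), and Hsph1 rose by 1.52 ± 0.33 in WT (adjusted p = 0.0227). Leaving out naive WT replicate 1 or 2 made the KO difference a call (adjusted p = 0.0426 and 0.0436). The WT call was lost in 6 of 16 alternatives, with adjusted p-values of 0.0547 to 0.208: the compared groups alone, either TFH KO library left out, either TFH WT library left out, and replicate 2 of both TFH groups left out. Hsph1 was -0.63 ± 0.33 in TFH KO against TFH WT without overlap, and 0.30 ± 0.33 in naive KO against naive WT with overlap.

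Dnajb1, the main stress-inducible J-domain partner (chr8:83608175-83612653), was at 12.76 and 12.52 in TFH KO, 13.11 and 13.10 in TFH WT, 12.05 and 12.05 in naive KO and 12.27 and 12.85 in naive WT. KO libraries were below WT libraries under each label, and naive WT replicate 2 lay above both TFH KO libraries. Dnajb1 rose by 0.59 ± 0.17 in KO (adjusted p = 0.0352) and by 0.55 ± 0.17 in WT (adjusted p = 0.037) with the TFH label. Each call was lost in 8 of 16 alternatives, with adjusted p-values of 0.0604 to 0.16 in KO and 0.0663 to 0.213 in WT, among them the fit without the mean-variance trend and the removal of either library of the TFH group compared. Without naive WT replicate 1 the WT difference was 0.26 (adjusted p = 0.213), and without replicate 2 it was 0.83. By genotype it differed by -0.47 ± 0.17 with the TFH label and -0.51 ± 0.17 with the naive label, the second at -0.80 without naive WT replicate 1 and -0.23 without replicate 2.

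Hsp90aa1 encodes the inducible HSP90 of the cytosol (chr12:110691036-110696395). Its level was 14.93 and 15.00 in TFH KO, 15.09 and 15.21 in TFH WT, 13.73 and 13.72 in naive KO and 13.85 and 13.60 in naive WT. The labels separated widely and the genotypes hardly. It rose by 1.24 ± 0.11 in KO (adjusted p = 1.98e-05) and by 1.42 ± 0.11 in WT (adjusted p = 6.32e-06) with the TFH label, and was called in all alternatives run. By genotype it differed by -0.18 ± 0.11 with the TFH label, without overlap, and by -0.00 ± 0.11 with the naive label. Hsp90ab1, the constitutive HSP90 (chr17:45567778-45573261), was at 16.78 and 17.05 in TFH KO, 17.07 and 17.30 in TFH WT, 16.25 and 16.13 in naive KO and 16.63 and 16.24 in naive WT. Every TFH-labelled library was above every naive-labelled one. It rose by 0.73 ± 0.15 in KO (adjusted p = 0.00622) and by 0.76 ± 0.15 in WT (adjusted p = 0.00383). The KO call was lost without TFH KO replicate 2 (adjusted p = 0.0537), without naive KO replicate 2 (adjusted p = 0.0509) and with replicate 2 of each TFH group removed (adjusted p = 0.0624), and the WT call was kept in all alternatives. Its genotype differences were -0.27 ± 0.15 with the TFH label, without overlap, and -0.24 ± 0.15 with the naive label, with overlap.

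Hspa5, the ER chaperone BiP (chr2:34772090-34776529), showed the largest label difference of the 8 chaperones beside Hspa1a and Hspa1b. It was at 16.42 and 16.57 in TFH KO, 16.19 and 16.42 in TFH WT, 14.10 and 14.21 in naive KO and 14.38 and 14.00 in naive WT. The labels were well apart in both genotypes, and the genotypes overlapped under each label. Hspa5 rose by 2.34 ± 0.13 in KO, 5.05-fold (adjusted p = 5.99e-07), and by 2.11 ± 0.13 in WT, 4.31-fold (adjusted p = 1.58e-06). Over 16 alternatives the rise was 2.26 to 2.41 in KO and 1.92 to 2.30 in WT, called in each. It was the only one of the 10 genes with a positive genotype difference in TFH-labelled libraries, 0.19 ± 0.13, and in naive-labelled libraries the difference was -0.04 ± 0.13. None of its 51-base stretches occurs in another gene.

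Hspd1, the mitochondrial HSP60 (chr1:55077833-55088243), was at 13.10 and 13.22 in TFH KO, 13.47 and 13.49 in TFH WT, 12.91 and 12.85 in naive KO and 12.82 and 12.67 in naive WT. It rose by 0.74 ± 0.10 in TFH WT against naive WT (adjusted p = 0.000387), called in all 16 alternatives. In KO the difference was 0.28 ± 0.10 (adjusted p = 0.075), called after cyclic loess normalization (adjusted p = 0.0473) or once a covariate for B cell genes was added (adjusted p = 0.0437). Its genotype differences ran in opposite directions without overlap, -0.32 ± 0.10 with the TFH label and 0.14 ± 0.10 with the naive label. Hspe1, the HSP10 lid of the same chamber (chr1:55088148-55091317), was at 12.52 and 12.46 in TFH KO, 12.80 and 12.58 in TFH WT, 12.20 and 12.53 in naive KO and 12.32 and 12.76 in naive WT. The compared groups overlapped except TFH KO and TFH WT. The difference TFH minus naive was 0.13 ± 0.16 in KO (adjusted p = 0.643) and 0.15 ± 0.16 in WT (adjusted p = 0.534), so Hspe1 was called in neither genotype. By genotype Hspe1 differed by -0.20 ± 0.16 with the TFH label and -0.18 ± 0.16 with the naive label.

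Counted over the 10 genes, 5 rose and 0 fell in TFH KO against naive KO, where 9.12% of all genes were called higher and 10.4% lower. They were Hspa8, Hspa5, Dnajb1, Hsp90aa1 and Hsp90ab1. In TFH WT against naive WT 7 rose, those 5 with Hsph1 and Hspd1, and 0 fell, where 12.6% of all genes were called higher and 13.7% lower. Without overlap between libraries, 8 of the 10 were higher in KO, beside 27.6% of all genes, and 7 of the 10 in WT, beside 33.1% of all genes. The median difference of the 10 was 0.69 in KO and 0.64 in WT, beside -0.01 and 0.01 over all genes. The count fell to 3 without TFH KO replicate 2 or naive KO replicate 2, and to 2 in KO and 4 in WT without replicate 2 of both TFH groups. In WT it was also 4 without TFH WT replicate 2. All 24 immediate early genes were measured alongside, since cells switch them on within minutes of stimulation or handling. They summed to log2 18.93 and 18.90 in TFH KO, 18.82 and 18.86 in TFH WT, 16.99 and 17.18 in naive KO and 16.93 and 17.09 in naive WT. Of these, 20 rose in each genotype, with Klf4 at 4.85 ± 0.17 in KO and 4.99 ± 0.17 in WT and Dusp1 at 2.97 ± 0.11 and 3.14 ± 0.11. The part of these genes, and of the myeloid and the CD8 and NK genes that were lower with the TFH label, in the rise of the chaperones was not tested.

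Set by genotype, the pair stood apart from the other 8 chaperones in size. In TFH KO against TFH WT 9 of the 10 genes were lower without overlap, where 16.5% of all genes were, and the exception was Hspa5. The other 8 genes ranged from -0.63 to 0.19 with a median of -0.24, beside a median of 0.00 over all genes, against -3.70 and -3.87 for Hspa1a and Hspa1b. In naive KO against naive WT 4 of the 10 were lower without overlap, Hspa1a, Hspa1b, Hspa8 and Dnajb1, where 11.2% of all genes were. Hspd1 was higher without overlap, where 15.2% of all genes were. The other 8 ranged from -0.51 to 0.30 with a median of -0.11, against -7.20 and -6.53 for the pair. These contrasts share libraries with the label contrasts above and are those by which the set was chosen.

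**Figure D3:**
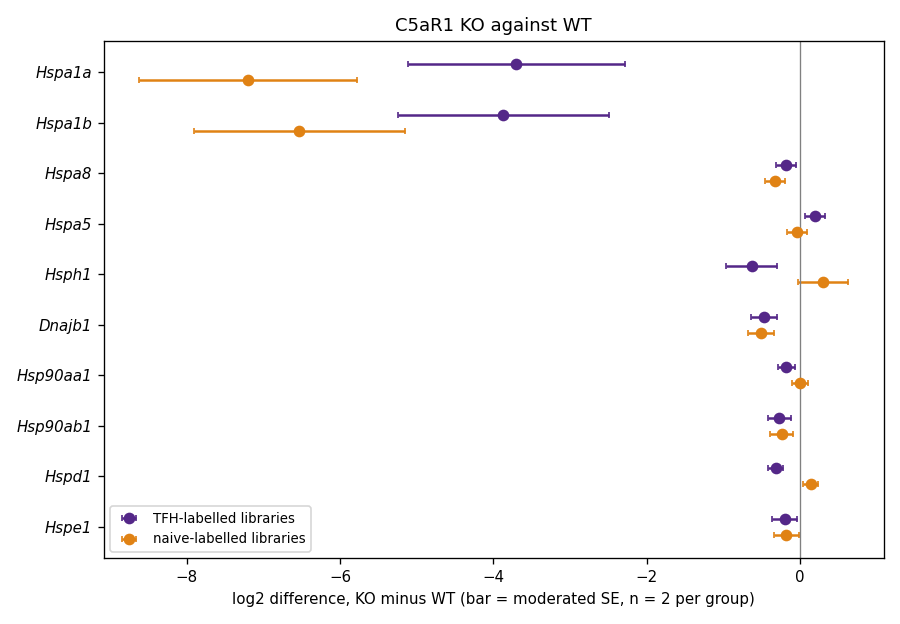
Log2 difference KO minus WT (x axis) of the 10 chaperone genes (y axis) in TFH-labelled and naive-labelled libraries, as points with moderated SE, n = 2 libraries per group. Hspa1a and Hspa1b lie between -7.20 and -3.70, and the other 8 genes between -0.63 and 0.30.

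Across all 8 libraries, only Hspa1a and Hspa1b of the 10 genes had all 4 KO libraries below all 4 WT libraries, as did 0.207% of all genes, 29 in number. Ordered by the gap between the lowest WT and the highest KO library, Hspa1b came first with 3.42 and Hspa1a second with 2.29. The set was drawn up because this pair differed between KO and WT. Its place in the order is therefore a description, not independent of that choice. The genes next in order were Eps8l1 with 1.13, Bcam with 0.57 and Slc1a5 with 0.53, all on chromosome 7. The gene with the next gap, Ide on chromosome 19, had 0.29. Whole-table calls by genotype were few. limma called 0 genes in TFH KO against TFH WT, with 506 at an unadjusted p below 0.05, and 10 genes or 0.0712% in naive KO against naive WT, all 10 on chromosome 7. Of these 0.0356% of all genes were higher and 0.0356% lower, and the interaction of genotype and label called 0.0142% of genes, 0.00712% in each direction.

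The genes most like Hspa1a and Hspa1b were sought by Pearson's r over the 8 libraries, among 1928 genes that reached log2 8 and ranged by at least 1. These r are descriptions: the libraries share 4 groups, and the KO and WT values of the pair do not overlap, so r mainly follows that gap. Hspa1a and Hspa1b had r = 0.968 with each other (Spearman's rho = 0.905). Eps8l1, which encodes a relative of the actin regulator EPS8, had r = 0.951 with Hspa1a (rho = 0.881) and 0.972 with Hspa1b (rho = 0.905). Its level was 8.58 and 8.41 in TFH KO, 9.71 and 9.74 in TFH WT, 7.79 and 7.5 in naive KO and 10.58 and 11.83 in naive WT. Like the pair, it was lower in every KO library and highest in naive WT replicate 2.

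Slc1a5, a transporter of glutamine and other neutral amino acids, came next for Hspa1a with r = 0.893 (rho = 0.905). Its level was 13.15 and 13.28 in TFH KO, 13.86 and 13.81 in TFH WT, 11.56 and 11.63 in naive KO and 13.90 and 14.04 in naive WT. Among the 10 genes most like Hspa1a, 7 were on chromosome 7, and among the 10 most like Hspa1b, 8 were, while 9.2% of the eligible genes with a known position were. They lay 0.53 to 14.85 Mb from C5ar1, the deleted gene (chr7:16246743-16259540), with Slc1a5 the nearest. Hspa1a and Hspa1b are on chromosome 17. Without the 2 libraries farthest from the median of Hspa1a, naive WT replicate 2 and naive KO replicate 1, r with Hspa1a was 0.898 for Eps8l1 and 0.907 for Slc1a5, and it was 0.364 for Slc15a2, a peptide transporter gene on chromosome 16 that had r = 0.776 over all libraries. Without the 2 farthest for Hspa1b, r with Eps8l1 was 0.923, and for Zfp82 it was 0.207, against 0.699 over all libraries.

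**Figure D4:**
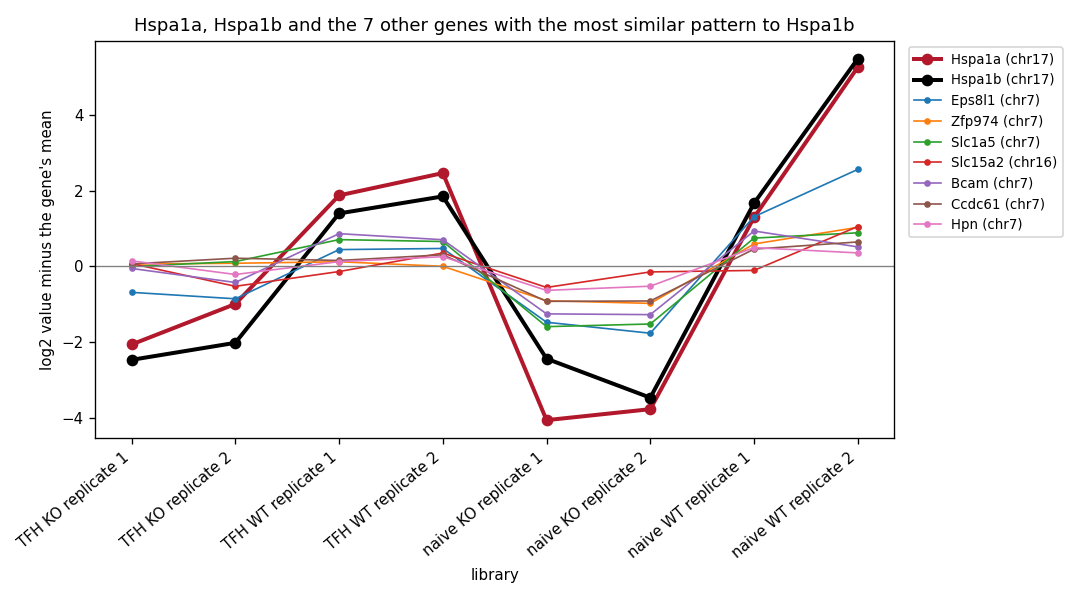
Log2 level minus the gene's own mean over 8 libraries (y axis) for Hspa1a, Hspa1b and the 7 other genes most like Hspa1b, by library (x axis), with lines joining the values of 1 gene. Hspa1a and Hspa1b span a wider range than the other genes, and Eps8l1 on chromosome 7 follows them most closely, from 7.5 in a naive KO library up to 11.83 in naive WT replicate 2 before centring.

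The other chaperones had other companions. Hspa8 and Hsp90ab1 were close to each other, with r = 0.985. Hspa5 was most like Fbxo33 and Plk2, both with r = 0.997, and among its 10 nearest genes were Klf4 with r = 0.996 and Dnajb9, an ER J-domain protein, with r = 0.995. Hsp90aa1 had r = 0.996 with Trib1 and 0.995 with Klf4. For Hspa5 and Hsp90aa1 these values mainly follow the separation of the labels, as those of Hspa1a mainly follow the separation of genotypes. Hspa8 and Hsp90ab1 also ran together within the naive label, both highest in naive WT replicate 1 and lowest in naive KO replicate 2. Hspd1 had its highest r, 0.991, with Cdca7, and Hspe1 with Ankrd37 at 0.832 and Dnajb1 at 0.776.

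Genes beside Hspa1a and Hspa1b did not follow them. The 5 nearest tabulated genes on each side, Zbtb12, Ehmt2, Slc44a4, Neu1 and 1110038B12Rik before and Hspa1l, Lsm2, D17H6S56E-5, Vars and Vwa7 after, differed by genotype from -0.31 to 0.42 with the TFH label and from -0.48 to 0.28 with the naive label. By limma 0 of the 10 were called in either genotype comparison, and 0 had an unadjusted p below 0.05 in either. Hspa1l, another HSP70 gene at this site that is known for its expression in testis, was at 6.36 and 6.75 in TFH KO, 6.25 and 6.01 in TFH WT, 6.80 and 6.30 in naive KO and 6.79 and 7.28 in naive WT. Its genotypes overlapped with the naive label, whereas TFH KO lay above TFH WT. Only Hspa1l was called between labels, in WT, where it fell by 0.90 (SE 0.29, adjusted p = 0.041), a call lost in 5 of 15 alternatives.

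**Figure D5:**
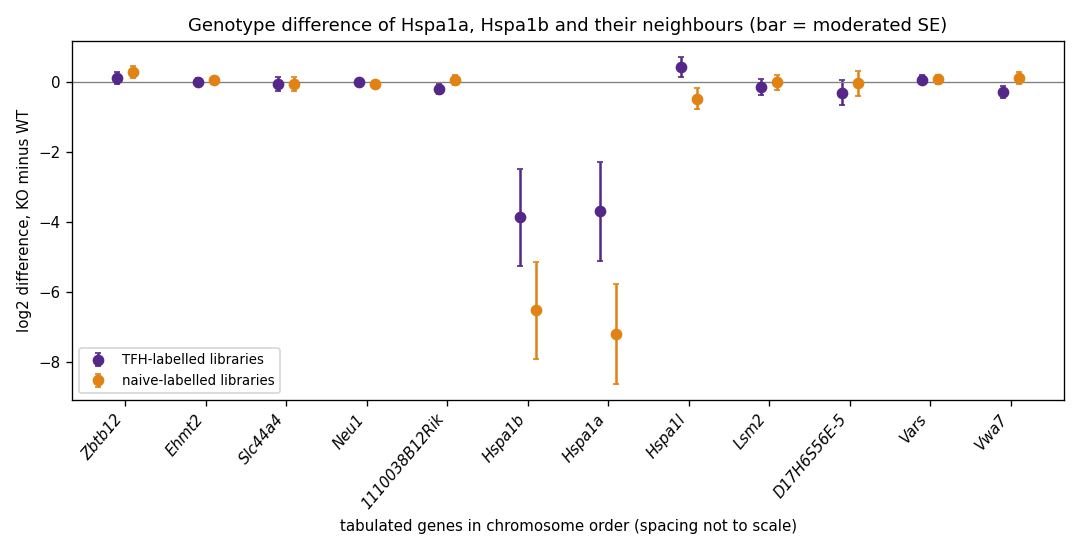
Log2 difference KO minus WT (y axis) of Hspa1b, Hspa1a and the 5 nearest tabulated genes on each side in chromosome order (x axis, spacing not to scale), in TFH-labelled and naive-labelled libraries, with moderated SE, n = 2 libraries per group. The 10 neighbours lie between -0.48 and 0.42, and Hspa1b and Hspa1a between -7.20 and -3.70.

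Wider chaperone pathways were read from 10 lists holding 110 further measured genes. In TFH KO against naive KO 19 of the 110 rose and 3 fell, and in TFH WT against naive WT 26 rose and 5 fell, with medians of 0.06 and 0.17 beside -0.01 and 0.01 over all genes. Of all genes 9.12% were called higher and 10.4% lower in KO, and 12.6% higher and 13.7% lower in WT. Among 19 J-domain proteins 3 rose and 1 fell in KO, and 5 rose and 1 fell in WT. Dnajb9 (ERdj4), an ER partner of Hspa5, rose by 3.68 ± 0.13 in KO and 3.36 ± 0.13 in WT, and Dnajb4 by 2.04 ± 0.13 and 1.84 ± 0.13. Dnajc10, an ER disulfide reductase with a J-domain, fell by 0.56 (SE 0.10) in KO and by 0.67 (SE 0.10) in WT. Of 8 further HSP70 and HSP110 genes 3 rose in KO and 4 rose in WT, where Hspa1l fell. Hspa12a rose by 1.29 ± 0.29 in KO and 1.09 ± 0.29 in WT, and Hspa14, which acts at the ribosome, by 0.37 ± 0.12 and 0.52 ± 0.12. The KO call of Hspa14 was lost in 12 of 16 alternatives and its WT call in 2. The calls of Hspa12a were lost in 1 of 15 in KO and 2 of 15 in WT, and that of Dnajc10 in KO in 1 of 16.

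Among 11 exchange factors and cofactors of HSP70, Bag3 rose by 1.20 ± 0.17 in KO and 0.94 ± 0.17 in WT. Stub1, the ubiquitin ligase CHIP that marks HSP70 clients for degradation, fell by 0.37 (SE 0.11) in KO and by 0.50 (SE 0.11) in WT. Bag1 rose by 0.40 ± 0.12 in WT, and the other 9 genes in KO and 8 in WT were not called. Of 15 HSP90 relatives and cochaperones, Unc45a rose by 0.68 ± 0.12 in KO and 0.55 ± 0.12 in WT. Stip1, which hands clients from HSP70 to HSP90, rose by 0.62 ± 0.15 in WT, and Fkbp5, a glucocorticoid-induced cochaperone, fell by 0.48 (SE 0.12) in KO. Each of these 2 lists thus had 1 rise and 1 fall in KO. In WT each had 2 rises, with 1 fall among the cofactors and 0 in the HSP90 list. In KO 9.12% of all genes were called higher and 10.4% lower, and in WT 12.6% and 13.7%. The counts were near those shares for lists of this size. Over 16 alternatives the call of Stub1 was lost in 6 in KO and 2 in WT, that of Bag1 in 5, that of Fkbp5 in 4, that of Stip1 in 3 and that of Unc45a in WT in 2. For the 3 measured small heat shock proteins limma gave 0 calls in either genotype, with 1 at an unadjusted p below 0.05 in each.

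Of 6 heat shock factors and regulators 2 rose in each genotype, where 9.12% of all genes were called higher in KO and 12.6% in WT. Ier5, a stimulator of HSF1, rose by 1.5 ± 0.12 in KO and 1.33 ± 0.12 in WT. Hsf1, the master regulator, rose by 0.41 ± 0.10 in KO (adjusted p = 0.012), a call lost in 3 of 16 alternatives, among them those without TFH KO replicate 2 or naive KO replicate 2 (adjusted p = 0.0504 to 0.116). In WT its difference was 0.18 (adjusted p = 0.199). Of 11 other HSF1 targets 3 rose in KO and 5 in WT, with Zfand2a, a stress-induced partner of the proteasome, at 2.59 ± 0.12 and 2.49 ± 0.12. Cacybp at 0.76 ± 0.12 and Jmjd6 at 0.65 ± 0.11 rose in WT.

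In the ER list 8 of 22 genes rose in KO and 0 fell, and in WT 3 rose and 1 fell. The shares over all genes were 9.12% higher and 10.4% lower in KO and 12.6% higher and 13.7% lower in WT, so the WT count of rises was near that share. Beside Dnajb9, Herpud1, a component of ER-associated degradation, rose by 0.66 ± 0.10 in KO and 0.46 ± 0.10 in WT, and Creld2 by 0.72 ± 0.14 and 0.51 ± 0.14. The lectin chaperone gene Calr rose by 0.60 ± 0.11 and Xbp1, a transcription factor of the ER stress response chosen after its value was seen, by 0.88 ± 0.21 in KO. The ER stress sensor gene Ern1 fell by 0.49 (SE 0.15) in WT. The WT calls of Ern1 and Creld2 were each lost in 5 of 16 alternatives, the KO call of Xbp1 in 4, the KO call of Creld2 and the WT call of Herpud1 in 2 and the KO call of Calr in 1. Of 14 subunits of the cytosolic chaperonin and prefoldin 0 were called by limma in KO, with 1 at an unadjusted p below 0.05, and in WT 4 rose and 1 fell, with Tcp1 at 0.54 ± 0.10 and Cct2 at 0.50 ± 0.10. In 11 mitochondrial chaperones and proteases limma called 0 in either genotype, with 1 at an unadjusted p below 0.05 in each. A call in one genotype and not in the other is not a difference between them, and the interaction called 0 of the 110 genes, with 9 at an unadjusted p below 0.05.

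By genotype, limma called 0 of the 110 further genes in TFH KO against TFH WT, with 5 at an unadjusted p below 0.05, and 0 in naive KO against naive WT, with 1 below it. Their medians were -0.04 and 0.03. The lowest value with the naive label was that of Hspb1, a small heat shock protein, at -1.36 ± 0.72. Hsf1 differed by 0.22 ± 0.10 with the TFH label, and Ier5 by 0.14 ± 0.12. The cofactor Bag3 differed by -0.31 ± 0.17 with the naive label. All 14 chaperonin and prefoldin subunits had a negative difference with the TFH label, with a median of -0.14 beside 0.0 over all genes. With the naive label 12 of the 14 had a positive one, with a median of 0.10 beside 0.01 over all genes. The lists thus held no gene with a called genotype difference, at 2 libraries per group.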

How the data were processed

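RNA from an RNeasy-type kit went into mRNA libraries read at 51 bp from one end, per the labels' protocols. The submitters' processing notes name BWA and mm10, without a version. How reads were counted and normalized, and on which annotation, is not given in the sources used here. Each deposited table holds log2 values, from 1.16 to 19.48, for 14042 gene symbols. Above the lowest percentile, sorted values lay within 0.03 of the median library, as quantile normalization by the authors would leave them, which hides any global shift between libraries. Depth per library is unknown.

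limma 3.58.1 (R 4.3.3) was fitted to the deposited values with no filter or pseudocount, all 8 libraries, 1 mean per group (4 residual degrees of freedom), trend and robust eBayes, and p-values adjusted over all genes. The labels do not say that libraries come from separate animals, so p-values measure only how far these samples spread, which may be technical. With 2 libraries against 2, the smallest p of an exact two-sided permutation test is 0.33.

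The members, the gene lists and the rule for named genes were chosen with earlier results of these data known. The rule names all 10 members, up to 4 called genes of each list in order of p (the first 2 where none was called), the 10 genes most like Hspa1a or Hspa1b, and 5 neighbours on each side. Not all are printed, and 1 gene that the rule names is not reported here. Hspa1l as a called gene, Xbp1, Xist, Ddx3y, H2-Ea-ps and Hsf1 in WT were named after their values were seen. So were the companions of the other 8 chaperones and the genes ordered by the gap between genotypes. Lists were described by counts and medians. Positions and promoters are from RefSeq on GRCm38.p6, shared stretches from GENCODE vM21 transcripts. Alternatives were no trend, no robust option, the compared groups alone, a filter at a mean log2 of 8, cyclic loess, library quality weights, a B cell covariate, each library left out in turn, replicate 2 of each TFH group left out together, and the HSP70 copies summed.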

Additional observations from a re-analysis of the deposited data

Results flagged for a closer look

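The genotype difference of Hspd1 pointed in opposite directions under the 2 labels, with every KO library below every WT library in TFH-labelled and above them in naive-labelled libraries. The difference between these differences was -0.46 ± 0.14, and it was not tested.

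Slc1a5, among the genes most like Hspa1a in its pattern, had a genotype difference that changed with the label by 1.75 ± 0.15 in the interaction (adjusted p = 0.000954 in limma). Since Slc1a5 was picked for its likeness to Hspa1a over the same libraries, this p is not independent of that choice. Its difference in naive KO against naive WT was -2.38 ± 0.10. Over 15 alternatives the interaction was 1.66 to 1.82, with adjusted p-values of 0.000686 to 0.109.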

How the results depend on the processing

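No paired analysis was possible because the labels carry no replicate numbers of their own that could pair libraries. The count of genes called in TFH KO against naive KO was 2744, and 1399 to 2683 with 1 library left out. In TFH WT against naive WT it was 3694, and 1991 to 3726. Without replicate 2 of both TFH groups these counts were 1225 and 2104. Between KO and WT, 0 genes were called with the TFH label, 1 with the compared groups alone and 0 to 2 with 1 library left out (2 without naive WT replicate 2). With the naive label 10 genes were called, and 7 to 17 with 1 library left out. The interaction called 2 genes, 0 without the trend and 1 to 7 with 1 library left out. Of the 10 chaperone genes 5 rose in KO, and 3 to 7 with 1 library left out, or 2 without replicate 2 of both TFH groups. In WT 7 rose, and 4 to 6 with 1 library left out, or 4 without replicate 2 of both TFH groups.

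Hspe1 turned to -0.04 in KO without naive KO replicate 1 (adjusted p = 0.924, and 0.35 to 0.924 over its alternatives) and to -0.07 in WT without naive WT replicate 1 (adjusted p = 0.823, and 0.145 to 0.922). With 1 library left out it ranged from -0.04 to 0.29 in KO and from -0.07 to 0.37 in WT. Hspa1a turned to 0.87 in WT without naive WT replicate 2 (adjusted p = 0.258, and 0.00263 to 0.847), with a range of -3.10 to 0.87. The cause was not tested, beyond the fewer libraries these fits hold. A lone library left in a group is assumed to vary like the other groups. Rises of Hspa5 and Hsp90aa1 in both genotypes, and of Hspd1 and Hsp90ab1 in WT, kept their call in all alternatives. Of the further genes named, 138 alternative values lost a call, 1 gained one and 1594 kept their side of the threshold. Unknown depth limits what can be said of Hspa1a and Hspa1b in KO libraries, where their values lie near the bottom of the tables.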
